A study of Mus musculus with 28 samples.

Results

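The comparison concerns 8 of the 28 RNA-seq libraries of a mouse study on blood vessels in brain metastasis: the mural cells of 4 brains or brain pools with lung cancer metastasis set against those of 4 brains with breast cancer metastasis. All mice carried the alleles PDGFRβ-CreERT2 and Rosa-tdTomato, and tamoxifen at 2 mg per day for 5 days switched on the red tdTomato reporter in cells that express Pdgfrb, so the non-tumor controls carry the same alleles and had the same drug. Tumors were seeded by injecting Sv2T3-BrM1 cells (lung origin) or PyMT-BrM3 cells (breast origin), each a single brain-homing mouse cancer line, into the heart. Brain cells free of CD45, CD11B and EPCAM were then sorted for tdTomato. The other libraries are the same sort from 5 non-tumor brains, used here as the reference for what that sort expresses without tumor, and the CD31 (endothelial) sort of the study's animals. Its 5 non-tumor libraries help to define gene classes, and its 5 libraries each from lung and breast metastasis are compared at the end. The labels give neither the age nor the sex of the mice. Of the 4 lung libraries, those numbered 55169-70 and 56195-56520 carry the numbers of 2 mice each. One line stands for each origin, so tumor origin and cell line cannot be told apart.

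Mural cells are the pericytes and smooth muscle cells that wrap brain capillaries and arterioles. Pericytes are marked by the PDGF receptor β, by the potassium channel subunits Kcnj8 and Abcc9 and by Rgs5, smooth muscle cells by contractile proteins such as Acta2. Both lay down basement membrane with the endothelium, are recruited by PDGF-B from endothelial cells, and can display adhesion molecules, chemokines and MHC molecules to immune cells in inflamed brain. Cancer cells can express genes of epithelium and of various organs. RNA of such genes in a mural sort is therefore given below apart from genes that mural cells express. No library of either cancer line alone was analysed here, so which cells such RNA came from was not tested.

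Levels are CPM, counts scaled to a common library total, and differences are log2 of lung over breast with their standard error (SE). Gene CPM rest on TMM-scaled library totals (TMM corrects for RNA composition), summed CPM of gene lists on raw totals. Genes were called at an adjusted p under 0.05 in edgeR's quasi-likelihood test. The libraries held 7.11 M to 23.9 M counts. The breast library of mouse 51950 was the shallowest, with 9174 genes detected against at least 17579 in the other 7 libraries, and the lung library of mouse 51435 stood apart by its mural RNA. Many of the results that rest on either are given with and without it. The date in the column names also moved with origin, since no date holds both lung and breast libraries.

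The label of the sort was checked first on its marker genes. Pdgfrb stood at 1410, 927, 776 and 318 CPM in the breast libraries of mice 51950, 52599, 52865 and 53072, at 876 to 1485 CPM in the 5 non-tumor libraries, and at 465, 39.5, 38.4 and 45.3 CPM in the lung libraries of mice 51435, 54957, 55169-70 and 56195-56520. Breast libraries carried the marker, while 3 of 4 lung libraries held little of it and the fourth, mouse 51435, lay within the breast range. The difference of -2.54 ± 0.76 missed the threshold (adjusted p = 0.065), and without mouse 51435 it was -4.42 and passed. The 25 pericyte genes together made up 7761 to 18550 CPM in breast, 26200 to 44220 CPM in non-tumor brain, 10160 CPM in lung mouse 51435 and 416 to 597 CPM in the other lung libraries. The lung libraries other than mouse 51435 thus held few transcripts of the cell type on the label. In such bulk libraries fewer mural cells and less mural RNA per cell cannot be told apart.

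Krt8, a keratin of simple epithelia, was at 425, 609, 560 and 1259 CPM in breast, at 2490, 3493, 2893 and 4335 CPM in lung, and at 0.895 to 8.85 CPM in non-tumor brain. Both tumor groups carried it far above non-tumor brain, every lung library lay above every breast library, and the difference passed narrowly (2.21 ± 0.60, adjusted p = 0.0479; 1.98 and not called without breast mouse 51950). Epcam, the surface protein used to remove epithelial cells, stood at 77.5 to 286 CPM in breast and 5.94 to 34.1 CPM in lung (-3.34 ± 1.35, adjusted p = 0.167). Ptprc, which encodes CD45, lay between 0 and 16.4 CPM in all 8 libraries (0.71 ± 1.62, adjusted p = 0.865). Pecam1, which encodes CD31, reached at most 7.95 CPM (-3.85 ± 1.22, adjusted p = 0.0811; -4.25 and called without breast mouse 51950). Xist, expressed from the silenced X chromosome of female cells, was at 493 to 554 CPM in breast, 187 CPM in lung mouse 51435 and 18.4 to 36.0 CPM in the other lung libraries (-2.98 ± 1.43, adjusted p = 0.249). Non-tumor libraries ranged from 0 to 687 CPM of Xist, lowest in mice 53680 and 54132. There the sex-linked gene list, which includes Xist, summed to 141.5 and 124.9 CPM. In lung that sum was 17.87 to 179.5 CPM, of which Xist alone made up 17.81 to 179.4 CPM on raw totals. Low Xist in lung thus came with almost no RNA of the other listed genes. The part of sex in these levels was not tested.

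**Figure D1:**
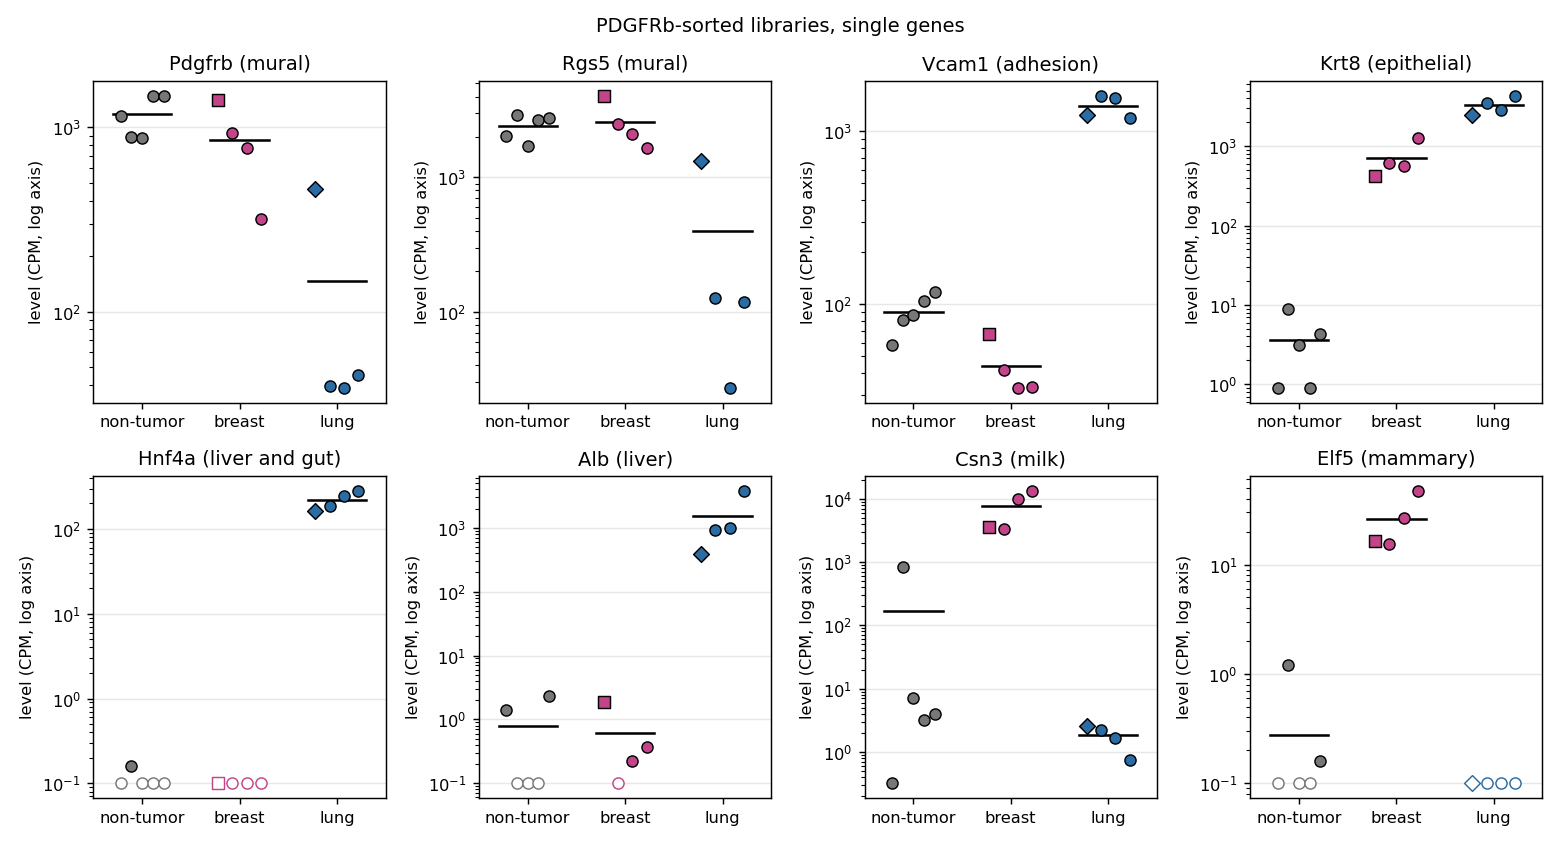
Level in CPM on a log axis of 8 genes in each PDGFRb-sorted library of non-tumor brain (5), breast (4) and lung metastasis (4); bars are group means, the square is breast mouse 51950, the diamond lung mouse 51435, and open symbols are values under 0.1 CPM drawn at 0.1. Pdgfrb and Rgs5 are low in 3 of 4 lung libraries, Vcam1 and Krt8 are higher in every lung than in every breast library, and Hnf4a, Alb, Csn3 and Elf5 separate the tumor groups by orders of magnitude.

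Across all genes, 524 of 17028 (3.08%) were called higher in lung and 407 (2.39%) higher in breast, 931 in all (5.47%), and 3636 had an unadjusted p under 0.05. The 4 lung and 4 breast libraries did not overlap for 2117 genes with lung above breast (12.4%) and for 778 with breast above lung (4.57%). Without breast mouse 51950 the counts rose to 1413 and 1275 of 18081 genes, and without lung mouse 51435 to 584 and 1010 of 17883. These counts over all genes stand beside the list counts given below. With the date as a covariate 12 and 90 genes were called, 43 of the 931 among them, and all 931 kept their direction. Leaving out 1 of the other 3 lung libraries gave 251 to 275 calls to lung and 97 to 102 to breast, and leaving out breast mouse 52599 gave 308 and 209.

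Of the 116 genes followed here through 13 fits that each left out 1 PDGFRb library, 104 were called with all libraries. Of these 104, 64 were called in each of the 13 fits and all kept their direction. Losses were most frequent without lung mice 54957, 55169-70 or 56195-56520 (36, 33 and 32 genes) or breast mouse 52599 (28 genes), and the number of fits in which such a gene was still called is given with its group. Scaling the libraries to the pericyte genes in place of TMM moved the median over all genes from 0.07 to 4.36, so that 13297 genes were called higher in lung and 97 in breast. Only 685 of the 931 genes called kept their direction, and several mural and immune genes named below then had a difference above 0.

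Genes were then sorted by their level in non-tumor brain. The difference itself compares lung with breast only. The non-tumor PDGFRb libraries did share in the filter on low counts, the scaling and the estimate of spread behind each call. The classes are thus not independent of the calls, and a fit of only the 8 lung and breast libraries gave 341 and 96. Of 2048 genes under 1 CPM in both sorts of non-tumor brain, 213 (10.4%) were higher in lung and 37 (1.81%) higher in breast, or 268 and 145 without breast mouse 51950. Such genes passed the filter on low counts mainly through the tumor libraries where they are high, so these shares describe the genes that passed and are not set against the other classes. Of 1327 genes enriched in the PDGFRb sort, at 10 CPM or more there in non-tumor brain and at least 2 log2 units above the endothelial sort, 36 (2.71%) were higher in lung and 76 (5.73%) higher in breast. The remaining 13653 genes gave 275 and 294 calls. The non-tumor library of mouse 54132 held several mammary and epithelial genes, as given below, and the classes were not set without it. The sort-enriched class is not purely mural. It holds 24 of 25 pericyte and 18 of 21 contractile genes tested, but also 9 of 11 astrocyte genes, among them Aqp4 and Slc1a3, 6 of 11 neuron genes, among them Gad1 and Dlx1, and 16 of 30 proliferation genes.

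Sort-enriched genes made up 15.6%, 14.5%, 12.2% and 11.1% of the counts in the breast libraries, 12.3%, 8.38%, 8.89% and 7.98% in the lung libraries, and 18% to 21.2% in non-tumor brain. Of the 76 such genes called higher in breast, 66 (86.8%) had their highest lung value in mouse 51435, against 59.1% of those not called, 71.8% of the breast calls among the remaining genes and 28.2% of all genes tested. Breast calls outside the class shared this trait. Without that library 352 sort-enriched genes were called higher in breast, and without breast mouse 51950 the class gave 85 calls to lung and 161 to breast.

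**Figure D2:**
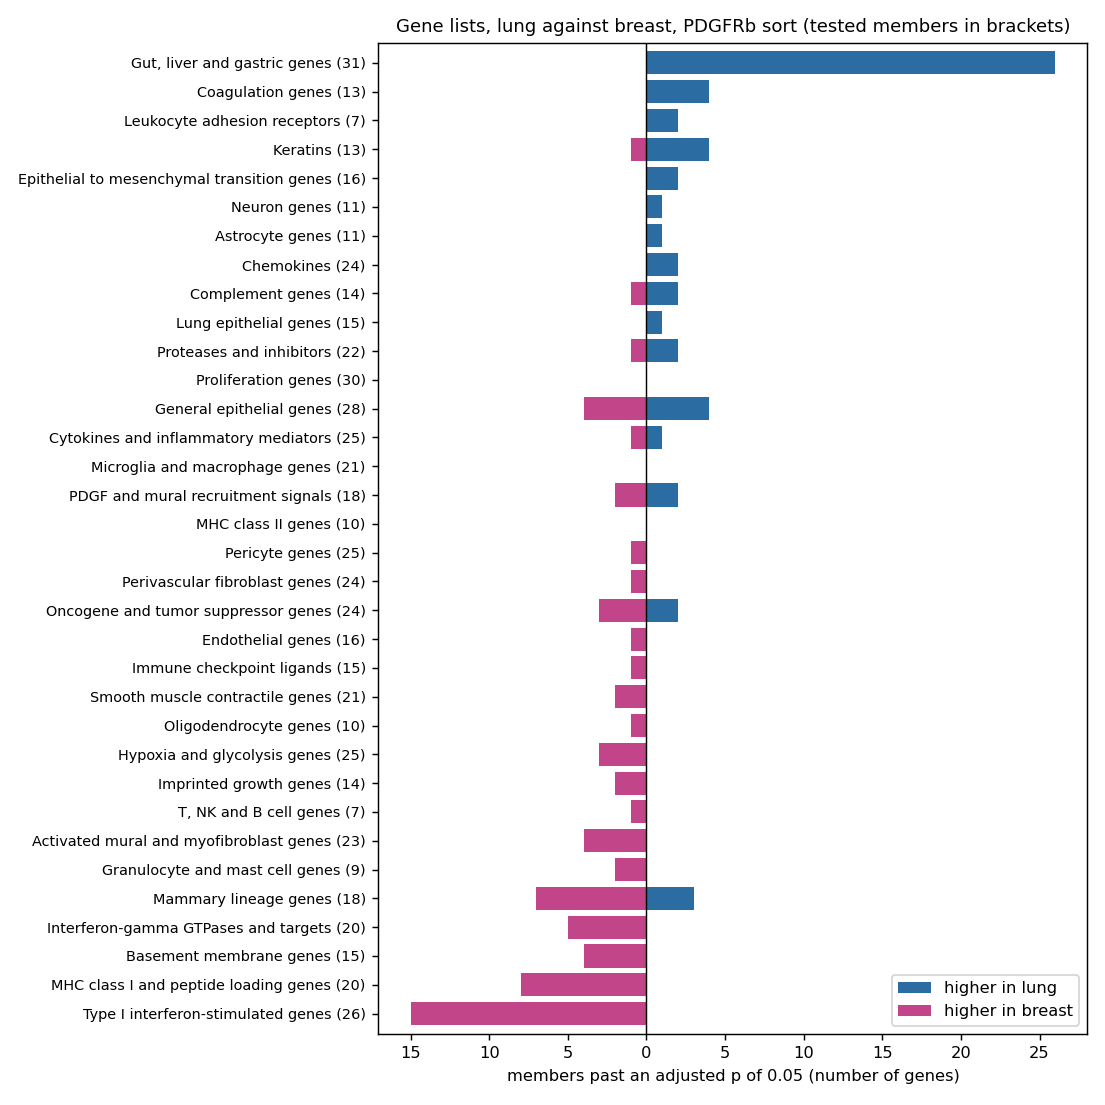
Number of members called higher in lung (right) or in breast (left) at an adjusted p under 0.05 for 34 gene lists, with the number tested in brackets. Gut, liver and gastric genes stand out toward lung with 26 of 31, and type I interferon-stimulated genes toward breast with 15 of 26.

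The gene list with the largest share called toward lung was that of the gut, liver and stomach. Of 31 such genes tested, 26 were higher in lung, with a median difference of 9.94 over the list against 0.07 over all genes, and 30 of 36 were called without mouse 51435. Factors that control such genes in endoderm include HNF4A, FOXA2, GATA6 and CDX2.

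Among the factors, Hnf4a, the master regulator of liver and gut epithelium, stood at 163, 187, 248 and 282 CPM in the lung libraries and at 0, 0, 0 and 0.075 CPM in breast. With 14197 counts in lung and 1 in breast, the ratio was 13400 (95% counting interval 2404 to 529200; adjusted p = 3.74e-05). It was present in all 4 lung libraries, mouse 51435 included. The forkhead factors Foxa2 (41.3 to 76.5 CPM in lung; 6.97 ± 1.35, adjusted p = 0.0105; 10.82 without breast mouse 52865) and Foxa1 (8.70 to 37.5 CPM; 4.28 ± 1.18, adjusted p = 0.0497) followed the same pattern.

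Gata6, a factor of gut and lung endoderm, lay between 11.5 and 56.5 CPM in lung and had 2 counts in breast (ratio 859, interval 238 to 7101; adjusted p = 0.00521). Cdx2, the intestinal homeobox factor, was at 2.08 to 13.6 CPM in lung and had no counts in breast, at least 155-fold higher against a floor of 3 counts over the group (adjusted p = 0.0198). Onecut2, a liver and foregut factor, was at 194 to 669 CPM in lung and 0 to 8.28 CPM in breast (7.97 ± 1.58, adjusted p = 0.0116; 13.31 without breast mouse 51950). Hhex, a factor of early liver and also of endothelium, was at 89.5 to 231 CPM in lung and at most 3.59 CPM in breast (6.43 ± 1.25, adjusted p = 0.0105). Each of these factors was higher in all 4 lung libraries than in any breast library.

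Secreted liver proteins were also higher in lung. Alb, serum albumin, was at 382, 918, 1000 and 3787 CPM in lung and at 1.86, 0, 0.221 and 0.375 CPM in breast. The lung libraries varied widely, with the lowest value in mouse 51435, and none overlapped with breast (11.61 ± 1.76, adjusted p = 0.00216). Rbp4, the retinol carrier, stood at 662, 1141, 845 and 1681 CPM against at most 0.507 CPM in breast (12.18 ± 1.12, adjusted p = 8.66e-05). Apob, the core protein of liver and gut lipoproteins, was at 207 to 1506 CPM in lung (11.47 ± 1.51, adjusted p = 0.000844), and Apoa1, its counterpart in high-density lipoprotein, at 356 to 1813 CPM (10.93 ± 1.55, adjusted p = 0.0014).

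Gc, the vitamin D binding protein, lay between 729 and 1416 CPM in lung. Its breast values were 0 to 0.675 CPM apart from 13.9 CPM in mouse 51950, and the difference was 8.35 ± 1.51 with that library (adjusted p = 0.00679) and 12.10 without it. Fgb, the fibrinogen β chain, was at 57.2 to 155 CPM in lung (10.30 ± 1.17, adjusted p = 0.000291). Fga, the α chain, was at 23.3 to 188 CPM in lung and had 1 count in breast (ratio 4651, interval 834 to 183700; adjusted p = 0.0105), and of 13 coagulation genes tested the 4 called, Fga, Fgb, Fgg and Proc, were all higher in lung. The protease inhibitors Pzp (141 to 710 CPM in lung; 10.54 ± 1.44, adjusted p = 0.00113) and Serpina1b (128 to 464 CPM; 9.75 ± 1.14, adjusted p = 0.000342) were also higher. Serpina1b has near-identical copies, so its own share of these reads is uncertain.

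Ttr, the thyroid hormone carrier made by liver and choroid plexus, differed from the others by its level in non-tumor brain. It was at 380 to 749 CPM in lung, 0.168 to 7.92 CPM in breast and 66.9 to 1049 CPM in non-tumor libraries (7.79 ± 1.32, adjusted p = 0.00448). Lgals4, a gut galectin, was at 171 to 736 CPM in lung, 0.169 to 12.6 CPM in breast and 13.7 to 30.5 CPM in non-tumor brain (6.19 ± 0.84, adjusted p = 0.00113). For both genes every breast library lay below every non-tumor library.

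Gut and gastric surface genes formed a further group. Krt20, the intestinal and gastric keratin, stood at 240, 441, 243 and 690 CPM in lung and had 2 counts in breast (ratio 11920, interval 3299 to 98420; adjusted p = 3.74e-05). Cdh17, the liver-intestine cadherin, was at 273 to 630 CPM (11.30 ± 1.35, adjusted p = 0.000402), and Lgals2, a gut galectin, at 631 to 1937 CPM (10.73 ± 1.09, adjusted p = 0.000161). Tff2, the gastric mucus peptide, was at 19.5 to 251 CPM in lung with no counts in breast, at least 1982-fold higher (adjusted p = 0.00628), and Ctse, a gastric protease, was at least 1757-fold higher (39.6 to 147 CPM; adjusted p = 0.00943). Tm4sf4, a membrane protein of liver and gut, was at 1409, 1913, 1520 and 2336 CPM in lung and 0 to 1.52 CPM in breast (10.99 ± 1.05, adjusted p = 9.43e-05). Its lung libraries, mouse 51435 included, lay close together. Msln, mesothelin, a surface antigen of several carcinomas, was at 442 to 1223 CPM in lung (10.90 ± 1.17, adjusted p = 0.000208).

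Genes of lung epithelium did not separate the groups as a list. Their sum was 300 to 522 CPM in lung, 152 to 752 CPM in breast and 150 to 305 CPM in non-tumor brain. Nkx2-1, the factor of lung epithelium, was at 0 CPM in 7 of the 8 libraries and 0.0589 CPM in the other, and did not pass the filter on low counts. Sftpc, a surfactant protein, lay between 0.242 and 7.67 CPM in lung and 1.65 and 60.6 CPM in breast. Of 15 lung epithelial genes tested, 1 was higher in lung, the mucin Muc5b (28.8 to 343 CPM against 0.112 to 0.225 CPM in breast; 9.97 ± 1.14, adjusted p = 0.000293). In non-tumor brain Sftpc lay between 2.34 and 58.3 CPM.

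The other epithelial and tumor genes higher in lung included Krt19 (760 to 1794 CPM against 0 to 3.08 CPM; 10.36 ± 1.34, adjusted p = 0.000775), a keratin of ducts. Cldn6, a claudin of embryonic epithelium, was at 79.7 to 170 CPM in lung and had 1 count in breast (ratio 7068, interval 1268 to 279200; adjusted p = 6.86e-05). The oncofetal genes Hmga2 (46.7 to 112 CPM; 5.97 ± 0.97, adjusted p = 0.0034) and Igf2bp1 (28.3 to 50.4 CPM; 6.33 ± 1.27, adjusted p = 0.0125) were the 2 called of 16 genes on the list of epithelial to mesenchymal transition. The retinoic acid enzyme Aldh1a3, a member of the mammary list, was higher in lung (95.4 to 163 CPM against 0.676 to 3.361 CPM; 5.92 ± 0.96, adjusted p = 0.00324). Among 24 oncogenes and tumor suppressors, Mycn (34.1 to 81.8 CPM; 6.74 ± 1.60, adjusted p = 0.0262) and Nras (272 to 416 CPM against 81.2 to 118 CPM; 1.84 ± 0.26, adjusted p = 0.00126) were higher in lung, and 3, Fgfr1 and Dusp6 among them, higher in breast (7 to breast without mouse 51950). Plaur, the urokinase receptor, was at 303 to 444 CPM in lung and 32.1 to 108 CPM in breast (2.66 ± 0.39, adjusted p = 0.0017). Krt8 was called in 5 of the 13 leave-out fits, Foxa1 in 3, Cdx2 in 11 and Mycn in 7.

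The breast libraries carried milk and mammary gland genes. Of 18 mammary genes tested, 7 were higher in breast and 3, Esr1, Foxa1 and Aldh1a3, higher in lung (10 and 4 without breast mouse 51950). Csn3, the milk protein κ-casein, stood at 3531, 3373, 9958 and 13300 CPM in breast and at 2.61, 2.26, 1.65 and 0.755 CPM in lung (-12.01 ± 2.47, adjusted p = 0.0142). Wfdc18, a whey acidic protein relative, was at 1489, 2769, 4049 and 7644 CPM in breast and 1.37 to 2.66 CPM in lung (-11.00 ± 2.20, adjusted p = 0.0123). Both were high in every breast library and near background in every lung library. The non-tumor library of mouse 54132 also held both, with 830 CPM of Csn3 and 333 CPM of Wfdc18, and Wfdc18 falls in the sort-enriched class. Summed mammary genes stood at 1458 CPM in that library, against 94.3 to 169 CPM in the other non-tumor libraries. It also held 200 CPM of Lcn2 and 15.9 CPM of Cldn3, against at most 6.79 and 0.876 CPM in the others.

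Elf5, the factor of milk-secreting cells, was at 16.6, 15.3, 26.4 and 47.2 CPM in breast with no counts in lung, at least 564-fold higher (adjusted p = 0.0159). Trps1, a repressor active in breast epithelium, was at 113 to 379 CPM in breast and 1.32 to 20.3 CPM in lung (-4.60 ± 0.73, adjusted p = 0.00277). Its non-tumor level of 55.0 to 78.7 CPM lay between the tumor groups. The iron-binding proteins Ltf, lactoferrin (64.3 to 872 CPM; -11.08 ± 2.35, adjusted p = 0.0163), and Lcn2 (1316 to 5386 CPM against 40.9 to 68.7 CPM; -5.42 ± 1.43, adjusted p = 0.0414) were also higher in breast. The classic milk genes Csn2 and Wap and the basal keratin gene Krt5 had no counts in any of the 8 libraries.

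Epithelial junction genes split by origin. Cldn3 (193 to 639 CPM against 0.409 to 2.18 CPM; -8.10 ± 1.63, adjusted p = 0.0125) and Cldn7 (78.3 to 151 CPM against at most 0.242 CPM; -10.53 ± 2.23, adjusted p = 0.0159) were higher in breast, whereas Cldn6, given above, was higher in lung. Of 28 general epithelial genes 4 were higher in each group, and of 13 keratins 4 (Krt6a, Krt8, Krt19 and Krt20) were higher in lung and 1 in breast. That one was Krt15, a keratin of basal and progenitor cells (14.9, 101, 97.9 and 303 CPM in breast and 0.161 to 1.54 CPM in lung; -7.62 ± 1.22, adjusted p = 0.00302). Without breast mouse 51950 the general epithelial genes gave 12 calls to breast and 3 to lung. Cdh1, E-cadherin, was at 413 to 981 CPM in lung and 0.338 to 386 CPM in breast and did not pass (1.77 ± 0.97, adjusted p = 0.32).

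Further genes higher in breast were Sox10, a factor of neural crest, oligodendrocytes and some mammary cells (86.5 to 164 CPM against 3.22 to 7.66 CPM; -4.56 ± 0.77, adjusted p = 0.00448), and Kit, a receptor tyrosine kinase of mast and luminal progenitor cells (194 to 449 CPM; -3.98 ± 0.95, adjusted p = 0.0267). In lung Kit was at 58.9 CPM in mouse 55169-70 and at 2.01 to 6.19 CPM in the others. Scd1, a fatty acid desaturase, was at 882, 2031, 2992 and 4895 CPM in breast and 52.8 to 87.5 CPM in lung (-5.23 ± 0.66, adjusted p = 0.000671). Ly6e, a surface protein induced by interferon, was at 1001, 2332, 3530 and 5169 CPM in breast and 9.19 to 64.6 CPM in lung (-6.39 ± 0.84, adjusted p = 0.000844). For both genes every breast library lay above every lung library.

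Fgfr1, a growth factor receptor, was at 85.6 to 389 CPM in breast and 8.30 to 41.9 CPM in lung (-3.63 ± 0.55, adjusted p = 0.00217). Igfbp5, which binds insulin-like growth factors (467 to 2209 CPM against 25.8 to 84.9 CPM; -4.22 ± 0.54, adjusted p = 0.00068), and Fabp5, a fatty acid carrier (876 to 1432 CPM against 23.4 to 226 CPM; -3.96 ± 0.73, adjusted p = 0.00737) were above the non-tumor range, whose highest values were 199 and 160 CPM, in every breast library. These 3 genes are in the sort-enriched class, and which cells their RNA came from was not tested. Of the 13 leave-out fits Csn3 was called in 10, Wfdc18 in 12, Ltf in 11, Lcn2 in 6, Cldn7 in 11 and Kit in 9. Without lung mouse 55169-70 the difference of Kit was -6.30, and without lung mouse 51435 that of Lcn2 was -5.56 and not called.

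**Figure D3:**
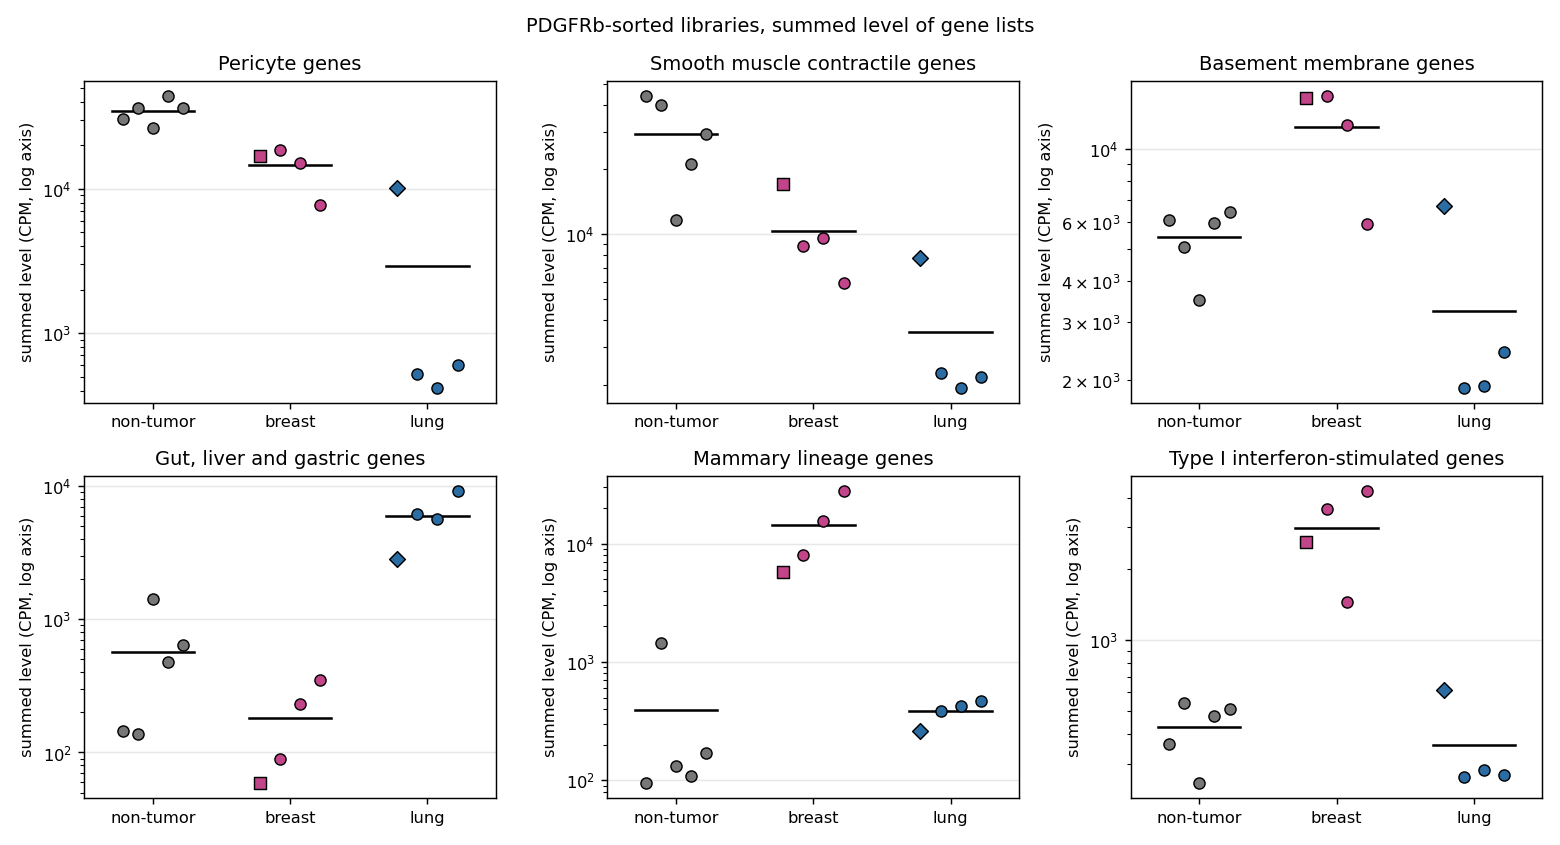
Summed level in CPM on a log axis of 6 gene lists in each PDGFRb-sorted library; bars are group means, the square is breast mouse 51950 and the diamond lung mouse 51435. Mouse 51435 has the highest mural sums and the lowest gut and liver sum of the lung libraries, 2848 CPM against 5694 to 9244 CPM.

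Mural genes leaned toward breast, but most members of each list did not pass the test with all libraries. Of 25 pericyte genes 1 was called, of 21 contractile genes 2, of 24 perivascular fibroblast genes 1, of 23 activated mural genes 4 and of 15 basement membrane genes 4, all of them higher in breast. The median differences were -2.43, -1.99, -1.69, -1.86 and -1.66 in that order, against 0.07 over all genes. Over all genes 2.39% were called higher in breast. Without lung mouse 51435 the counts were 24, 13, 10, 14 and 9, again all higher in breast, beside 1010 of all 17883 genes. Without breast mouse 51950 they were 1, 2, 3, 2 and 3, beside 1275 of all 18081 genes, with 1 basement membrane gene called higher in lung. Beside these counts stand the summed gut and liver genes, 2848 CPM in mouse 51435 and 5694 to 9244 CPM in the other lung libraries; the part of tumor RNA in the mural differences was not tested.

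Among pericyte genes, Anpep, the aminopeptidase CD13, stood at 109, 91.3, 107 and 105 CPM in breast and 39.7, 2.34, 11.8 and 5.35 CPM in lung (-2.80 ± 0.66, adjusted p = 0.0261). The breast values lay within the range of non-tumor brain (71.2 to 121 CPM) and the lung values below it. Rgs5 was at 1644 to 4059 CPM in breast, 1331 CPM in lung mouse 51435 and 27.1 to 127 CPM in the other lung libraries (-2.69 ± 0.85, adjusted p = 0.0805). Kcnj8 followed with 506 to 2054 CPM in breast, 832 CPM in mouse 51435 and 2.83 to 26.9 CPM in the others (-2.62 ± 1.18, adjusted p = 0.217). For both, as for Pdgfrb, the call rested on mouse 51435: without it the differences were -4.87 and -6.37 and passed. Aoc3, vascular adhesion protein 1, an amine oxidase of smooth muscle and pericytes, was called with all libraries (38.9 to 174 CPM in breast, 1.89 to 16.7 CPM in lung; -4.17 ± 0.82, adjusted p = 0.0115), as were the sort-enriched Emid1 (96.5 to 219 CPM against 2.00 to 22.4 CPM; -4.62 ± 0.82, adjusted p = 0.00609) and the factor Sox5 (17.5 to 240 CPM against 1.45 to 6.14 CPM; -4.58 ± 0.90, adjusted p = 0.0111; -2.86 and called without breast mouse 51950).

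Of the contractile genes, Mylk, myosin light chain kinase, was at 309 to 1054 CPM in breast and 53.1 to 286 CPM in lung (-2.31 ± 0.59, adjusted p = 0.0345), and Cald1, caldesmon, at 940 to 2157 CPM and 259 to 795 CPM (-1.65 ± 0.37, adjusted p = 0.02). Acta2, smooth muscle actin, spanned 1474 to 6318 CPM in breast, 1960 CPM in lung mouse 51435 and 40.6 to 157 CPM in the other lung libraries (-2.57 ± 0.99, adjusted p = 0.148). Without mouse 51435 the difference of Acta2 was -5.14 and passed. Non-tumor libraries held 2687 to 14420 CPM of Acta2. Summed contractile genes were at 1931 to 7749 CPM in lung, 5928 to 17200 CPM in breast and 11710 to 44020 CPM in non-tumor brain.

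Matrix genes showed a further pattern, since several were higher in breast than in non-tumor brain. Col5a1, a fibrillar collagen chain, stood at 1814, 914, 439 and 332 CPM in breast, 238, 48.7, 41.2 and 41.6 CPM in lung and 18.04 to 69.9 CPM in non-tumor brain (-3.24 ± 0.72, adjusted p = 0.0195). Col6a3, a microfibril collagen, was at 282 to 779 CPM in breast, 14.99 to 201 CPM in lung and 3.14 to 14.3 CPM in non-tumor brain (-2.97 ± 0.81, adjusted p = 0.048), and Col6a2 at 129 to 498 CPM and 26.5 to 121 CPM (-2.34 ± 0.52, adjusted p = 0.0194). All breast libraries lay above all lung and non-tumor libraries for these genes. Sparc, a matrix protein of remodelling tissue, was at 2664 to 6388 CPM in breast, 3231 CPM in mouse 51435 and 525 to 666 CPM in the others (-1.98 ± 0.54, adjusted p = 0.0498). Col15a1, made by perivascular fibroblasts and vessels, was at 37.7 to 98.8 CPM in breast and 1.24 to 13.3 CPM in lung (-3.94 ± 0.89, adjusted p = 0.0212). Col1a1, the main fibroblast collagen, did not pass (360 to 2352 CPM in breast, 25.4 to 515 CPM in lung; -2.77 ± 0.87, adjusted p = 0.0787). Without lung mouse 51435 the difference of Col1a1 was -4.66 and passed. Levels above non-tumor brain were not confined to breast. Fn1, fibronectin, was at 2021 to 3937 CPM in lung, 636 to 1766 CPM in breast and 28.5 to 86.8 CPM in non-tumor brain. Col6a1 was at 139 to 265 CPM in lung, 165 to 349 CPM in breast and 19.2 to 88.4 CPM in non-tumor brain. Neither Fn1 nor Col6a1 was called between lung and breast.

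The basement membrane genes called were Nid1 and Nid2, which link laminin to collagen IV, the collagen IV chain Col4a2 and the laminin chain Lamc1. Nid1 was at 923, 1257, 1062 and 479 CPM in breast and 440, 127, 110 and 123 CPM in lung (-2.22 ± 0.46, adjusted p = 0.0153). Nid2 (85.3 to 566 CPM against 6.19 to 75.7 CPM; -3.18 ± 0.75, adjusted p = 0.026) did not overlap either, whereas Col4a2 (999.3 to 3288 CPM against 115 to 1082 CPM; -2.54 ± 0.65, adjusted p = 0.035) and Lamc1 (243 to 1537 CPM against 119 to 353 CPM; -1.88 ± 0.51, adjusted p = 0.0473) overlapped through mouse 51435. Without breast mouse 51950 the differences of Mylk, Col6a3, Sparc, Col4a2 and Lamc1 were -1.86, -2.65, -1.81, -2.29 and -1.09 and missed the threshold. Without lung mouse 51435 those of Col6a3, Sparc and Col4a2 were -4.84, -3.09 and -3.87. Each of the pericyte, contractile and matrix genes called here, other than Aoc3, Emid1 and Sox5, lost the call in part of the 13 leave-out fits, Sparc and Col6a3 in 12 of them. Scaled to the pericyte genes, the differences of Anpep, Mylk, Cald1, Col5a1, Col6a2, Sparc, Nid1, Nid2, Col4a2, Lamc1 and Col1a1 were above 0, at 0.31 to 2.39, each below the median of 4.36 over all genes.

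A set of sort-enriched genes was higher in lung, at levels above every non-tumor library. In non-tumor brain Clu, Phgdh, Scara3, Agt and Smpd3 were highest in mouse 54135, as were the summed astrocyte genes, at 5164 CPM against 365 to 3596 CPM in the other non-tumor libraries, 722 to 1141 CPM in lung and 326 to 1008 CPM in breast. The part of astrocyte RNA in these genes was not tested. Clu, clusterin, a secreted chaperone, stood at 13020, 16490, 15820 and 15510 CPM in lung, 385, 187, 244 and 465 CPM in breast and 143 to 1652 CPM in non-tumor brain (5.57 ± 0.65, adjusted p = 0.00033). Igfbp4, an insulin-like growth factor binding protein, was at 1244, 3238, 2568 and 3365 CPM in lung and 31.3 to 306 CPM in breast (4.52 ± 0.70, adjusted p = 0.00248). The lung libraries with little pericyte RNA carried these genes as high as mouse 51435 or higher. Scara3 (139 to 200 CPM against 0 to 3.87 CPM; 6.45 ± 0.93, adjusted p = 0.00155), Phgdh, the first enzyme of serine synthesis (536 to 786 CPM against 0.507 to 57.8 CPM; 4.22 ± 0.90, adjusted p = 0.0166), and Smpd3, a sphingomyelinase (71.9 to 253 CPM against 0 to 4.25 CPM; 6.65 ± 1.35, adjusted p = 0.0131), showed the same order. Agt, angiotensinogen, made by liver and astrocytes, was at 321 to 898 CPM in lung, 0.169 to 25.04 CPM in breast and 18.1 to 244 CPM in non-tumor brain (5.03 ± 1.08, adjusted p = 0.0167). Timp2, an inhibitor of matrix proteases, was at 200 to 607 CPM in lung and 36.1 to 68.4 CPM in breast (3.03 ± 0.44, adjusted p = 0.00166). Agt and Phgdh were not called without breast mouse 52599, where both kept their direction, and the others were called in all 13 leave-out fits.

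Among 18 PDGF and recruitment signals 2 were higher in each group. Pdgfc, a ligand of the PDGF receptor α, was at 93.8, 126, 127 and 127 CPM in lung and 0, 3.53, 6.86 and 17.6 CPM in breast (4.07 ± 1.004, adjusted p = 0.0305), and Hbegf, an EGF receptor ligand, at 422 to 627 CPM and 53.4 to 178 CPM (2.07 ± 0.37, adjusted p = 0.00618). Pdgfd, a ligand of the PDGF receptor β, had 1 count in lung and 66 in breast, of which mouse 51950 held none (ratio 69.9, interval 12.1 to 2804; adjusted p = 0.0376), and was at 6.14 to 22.4 CPM in non-tumor brain. Both tumor groups lay below non-tumor brain for Pdgfd. Pdgfb, the endothelial ligand, was at 26.8 to 47.4 CPM in lung and 0.169 to 26.9 CPM in breast (1.99 ± 0.91, adjusted p = 0.227). The other call to breast was Notch1, and 6 of the list were called higher in breast without lung mouse 51435. Of the 13 leave-out fits Pdgfc was called in 8 and Pdgfd in 3, and Hbegf in all. Without lung mouse 51435 Pdgfd was not called (adjusted p = 0.0619).

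The clearest immune pattern was the interferon response, higher in breast. Interferons act through factors of the IRF family and others on the interferon-stimulated response element, and raise antiviral genes and MHC class I. Of 26 type I interferon-stimulated genes 15 were called, of 20 interferon-γ targets 5 and of 20 genes of MHC class I and peptide loading 8, all of them higher in breast, with median differences of -3.25, -2.40 and -1.70. Over all genes 2.39% were called higher in breast. Without breast mouse 51950 the counts to breast were 22, 13 and 13, beside 1275 of all 18081 genes tested. Without lung mouse 51435 they were 16, 5 and 8, beside 1010 of all 17883 genes tested. Summed type I genes stood at 2593, 3580, 1451 and 4284 CPM in breast, 617, 264, 283 and 268 CPM in lung and 248 to 540 CPM in non-tumor brain.

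The promoters of Isg15 and Cxcl10 show the element; they are the 250 bases before the start site in RefSeq's annotation of GRCm38.p6, 5′ to 3′ on the gene's strand, with each match to the element (GAAA, any pair of bases, then GAAA again, on either strand) in capitals. In Isg15 3 overlapping matches form 1 run.
Isg15, chr4:156200819-156201068, minus strand: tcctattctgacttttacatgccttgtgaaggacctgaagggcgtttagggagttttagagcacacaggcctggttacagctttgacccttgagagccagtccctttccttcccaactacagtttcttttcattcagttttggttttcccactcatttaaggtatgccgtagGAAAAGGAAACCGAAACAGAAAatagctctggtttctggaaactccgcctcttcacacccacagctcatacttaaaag
Cxcl10, chr5:92348890-92349139, minus strand: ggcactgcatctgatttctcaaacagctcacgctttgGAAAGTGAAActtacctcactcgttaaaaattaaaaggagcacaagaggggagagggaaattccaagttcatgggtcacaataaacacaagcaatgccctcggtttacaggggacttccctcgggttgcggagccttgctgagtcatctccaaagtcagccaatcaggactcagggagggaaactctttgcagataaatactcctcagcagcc
Of the 15 called type I genes 10 have a promoter in that table, and 6 of these hold the element in 300 bases (250 before the start and 50 after), against 3.44% of all 32851 promoters. Each of the other motifs given here, searched on both strands (CAAAGTC of HNF4, TGTTTAC of FOXA, AGATAAG of the GATA factors, TTTATGG of CDX, GGGTGTG of KLF and ACATTCC of TEAD), was in 0 to 3 of the 10, with 3 for KLF against 7.95% of all promoters and 2 for HNF4 against 4.44%. Of the 26 called gut, liver and gastric genes 16 have a promoter in the table, and HNF4, FOXA, GATA and CDX motifs were in 1, 2, 0 and 1 of these, against 4.44%, 3.65%, 3.04% and 2.75% of all promoters. The element was added to the search after the results were known, and its matches describe these windows only.

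**Figure D4:**
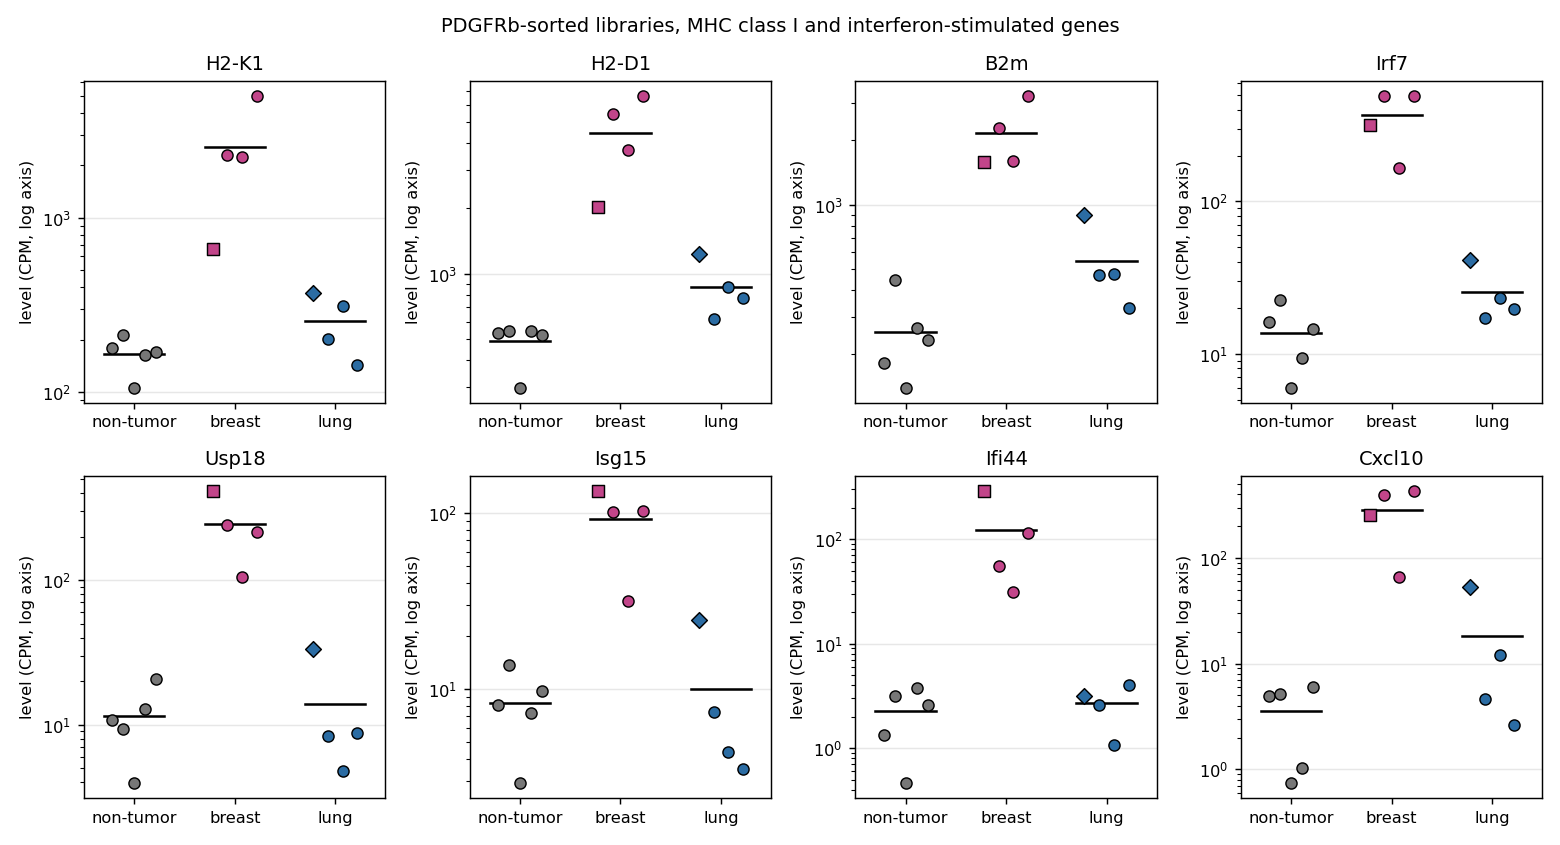
Level in CPM on a log axis of 8 MHC class I and interferon-stimulated genes in each PDGFRb-sorted library; bars are group means, the square is breast mouse 51950 and the diamond lung mouse 51435. For each of the 8 genes every breast library lies above every lung library, and for each of them but Ifi44 mouse 51435 is the highest lung library.

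Among the MHC class I genes, H2-K1 stood at 665, 2283, 2228 and 5011 CPM in breast and 372, 201, 312 and 143 CPM in lung (-3.31 ± 0.50, adjusted p = 0.00215). H2-D1 was at 2030 to 6628 CPM in breast and 617 to 1234 CPM in lung (-2.36 ± 0.34, adjusted p = 0.00166), and B2m, the shared light chain, at 1578 to 3236 CPM and 329 to 897 CPM (-2.0 ± 0.39, adjusted p = 0.0111). No breast library overlapped with lung. H2-K1 in lung overlapped with its non-tumor range of 105 to 212 CPM, whereas H2-D1 in lung lay above its non-tumor range of 296 to 544 CPM. Summed over the list, the level was 2148 to 3977 CPM in lung, 5997 to 20530 CPM in breast and 1200 to 1987 CPM in non-tumor brain. H2-Q7 (155 to 1107 CPM against 1.26 to 10.6 CPM; -6.65 ± 0.93, adjusted p = 0.00126) and H2-Q6 (56.1 to 601 CPM against 1.05 to 9.67 CPM; -5.65 ± 0.93, adjusted p = 0.00359) differed most, but they are near-identical copies and their separate values are uncertain. Tap1, the peptide transporter chain, was at 2.53, 226, 131 and 388 CPM in breast, lowest in mouse 51950, and 19.6 to 79.8 CPM in lung (-2.16 ± 0.88, adjusted p = 0.172).

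Of the interferon signal genes, Irf7, the factor that amplifies the response, was at 319, 494, 167 and 493 CPM in breast and 41.2, 17.2, 23.2 and 19.6 CPM in lung (-3.86 ± 0.50, adjusted p = 0.000775). Mouse 52865 was the lowest breast library and mouse 51435 the highest lung library. Among effectors, Ifi44 (30.9 to 290 CPM against 1.06 to 4.03 CPM; -5.498 ± 0.89, adjusted p = 0.0034), Usp18, which trims ISG15 from proteins (106 to 415 CPM against 4.77 to 33.3 CPM; -4.14 ± 0.71, adjusted p = 0.00449), the ubiquitin-like Isg15 (31.7 to 134 CPM against 3.53 to 24.8 CPM; -3.20 ± 0.75, adjusted p = 0.0252) and Mx2 (6.19 to 56.8 CPM against 0.118 to 3.53 CPM; -4.13 ± 0.95, adjusted p = 0.023) were higher in breast. The nuclear body genes Sp100 (53.6 to 189 CPM against 1.47 to 7.83 CPM; -4.87 ± 0.81, adjusted p = 0.00394) and Sp110 (42.7 to 204 CPM against 0.692 to 6.29 CPM; -4.71 ± 0.95, adjusted p = 0.0125) moved with them.

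Of the interferon-γ targets, the GTPase Iigp1 was at 404, 332, 51.9 and 369 CPM in breast and 36.2, 6.77, 7.31 and 7.81 CPM in lung (-4.31 ± 0.73, adjusted p = 0.00418). Tgtp2, a related GTPase, was at 128 to 411 CPM and 11.4 to 64.3 CPM (-3.27 ± 0.55, adjusted p = 0.00418). Both belong to families of near copies, and their values are uncertain to that extent. Cxcl10, a chemokine that attracts T cells, was at 257, 393, 66.1 and 431 CPM in breast and 53.4, 4.67, 12.2 and 2.64 CPM in lung (-3.97 ± 0.998, adjusted p = 0.0335). Of the 13 leave-out fits Isg15 was called in 8, Mx2 in 9, Cxcl10 in 6 and Sp110 in 12, and the other interferon and MHC genes called were called in all. Scaled to the pericyte genes, H2-K1, H2-D1, B2m, Irf7, Isg15 and Tgtp2 had differences of 0.10 to 1.89, each below the median of 4.36 over all genes. The breast libraries also held 5699 to 27880 CPM of summed mammary genes, against 262 to 464 CPM in lung, and which cells expressed the interferon genes was not tested.

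Of 7 leukocyte adhesion receptors tested, Vcam1 and Alcam were higher in lung. Vcam1, the receptor for leukocyte integrins on inflamed endothelium and on some mural and epithelial cells, stood at 1248, 1606, 1549 and 1199 CPM in lung, 67.4, 41.4, 32.7 and 33.3 CPM in breast and 58.0 to 118 CPM in non-tumor brain. It was 32.1-fold higher in lung, 5.00 ± 0.32 on the log2 scale, with the smallest p of all genes (adjusted p = 4.26e-06). The 4 lung libraries lay close together, whether rich in pericyte RNA or not, and all breast values lay below the non-tumor mean of 89.6 CPM. The difference was 5.26 without breast mouse 51950, 5.02 without lung mouse 51435 and 4.41 with the date as a covariate, and was called each time. Alcam, an adhesion molecule that binds CD6, was at 47.3, 177, 95.4 and 113 CPM in lung and 0, 4.26, 7.96 and 8.55 CPM in breast (4.36 ± 0.93, adjusted p = 0.0164). DESeq2 called 2 of the list higher in lung, limma-voom 4 and 1 higher in breast, and without lung mouse 51435 edgeR called 2 and 1. Icam1 was at 128 to 177 CPM in lung and 0 to 69.2 CPM in breast (2.24 ± 0.98, adjusted p = 0.202).

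Of 24 chemokines 2 were higher in lung and of 25 cytokines 1, with 1 more, Lcn2, higher in breast. Cxcl3, which attracts neutrophils, was at 3.38 to 9.37 CPM in lung with no counts in breast or non-tumor brain, at least 117-fold higher than breast (adjusted p = 0.0168). Ccl17 was at 1.53 to 23.6 CPM and had 1 count in breast (ratio 734, interval 131 to 29040; adjusted p = 0.0151), and Csf2, the growth factor GM-CSF, was at 6.12 to 19.2 CPM against 0 to 0.392 CPM (6.70 ± 1.53, adjusted p = 0.034). These 3 were absent from non-tumor mural cells, at no more than 0.270 CPM. Ccl2, a monocyte attractant, was at 86.7 to 350 CPM in breast and 2.14 to 68.6 CPM in lung and was not called (-2.77 ± 0.92, adjusted p = 0.0948), while 4 chemokines were called higher in breast without lung mouse 51435. Among complement genes, Cfi (287 to 572 CPM against 0 to 0.600 CPM; 10.89 ± 1.56, adjusted p = 0.0015), a protease of liver origin, and Cfb (287 to 580 CPM against 12.8 to 113 CPM; 2.64 ± 0.63, adjusted p = 0.0273) were higher in lung. C1s1, a classical pathway protease, was higher in breast (104 to 288 CPM against 15.3 to 83.2 CPM; -1.94 ± 0.52, adjusted p = 0.0443; -1.68 and not called without mouse 51950). Of the 13 leave-out fits Alcam was called in 11, Cxcl3 in 10, Ccl17 in 12, Csf2 in 8, Cfb in 8 and C1s1 in 2, and without breast mouse 52599 the difference of Csf2 was 10.67.

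Of 15 checkpoint ligands 1 passed. Cd200, which restrains macrophages, was at 34.6 to 122 CPM in breast, 3.12 to 32.7 CPM in lung and 109 to 215 CPM in non-tumor brain (-2.69 ± 0.70, adjusted p = 0.0386), and it was called in 3 of the 13 leave-out fits. Cd276, the ligand B7-H3, was at 57.2 to 71.7 CPM in lung and 17.0 to 145 CPM in breast (-0.14 ± 0.58, adjusted p = 0.931), above its non-tumor range of 3.47 to 11.7 CPM in every tumor library. Cd274, which encodes PD-L1, lay between 4.22 and 28.6 CPM in the 8 libraries. Of 10 MHC class II genes none was called by edgeR, DESeq2 or limma-voom, and none had an unadjusted p under 0.05. Cd74, the class II chaperone, was at 278 to 1294 CPM in breast and 52.9 to 702 CPM in lung, against 4.28 to 54.2 CPM in non-tumor brain (-0.85 ± 0.90, adjusted p = 0.67).

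Immune cell markers differed between single libraries. Of 21 microglia and macrophage genes none was called by edgeR, DESeq2 or limma-voom, and 1 had an unadjusted p under 0.05. The list holds Apoe, a lipid carrier that astrocytes and mural cells also express, at 421 to 1402 CPM in the 8 libraries and 1285 to 3195 CPM in non-tumor brain. The other 22 genes of the list summed to 243, 203, 1747 and 366 CPM in breast, 363, 67.2, 797 and 82.9 CPM in lung and 25.9 to 141 CPM in non-tumor brain. Breast mouse 52865 and lung mouse 55169-70 thus held the most, and C1qb, a complement chain of macrophages, was at 344 and 51.9 CPM there against 0.225 to 6.15 CPM in non-tumor brain. Itgam, which encodes CD11B, was at 0 CPM in 5 of the 8 libraries and at most 3.30 CPM in the rest. Of 7 T, NK and B cell genes tested the 1 called was Cd3g, with 0, 8.01, 17.7 and 1.5 CPM in breast and no counts in lung (at least 199-fold higher, adjusted p = 0.0443). It overlapped through mouse 51950 and was called in 2 of the 13 leave-out fits. Of the granulocyte and mast cell list the 2 called were Ltf and Kit, given above. Its sum was 263 to 1322 CPM in breast, 634 CPM in lung mouse 55169-70, 2.86 to 16.8 CPM in the other lung libraries and 32.1 to 234 CPM in non-tumor brain. In breast most of this sum was Ltf, at 64.3 to 872 CPM, and Kit, at 194 to 449 CPM. Ltf is also on the mammary list, and which cells this RNA came from was not tested. In lung mouse 55169-70 the mast cell proteases Cpa3 and Mcpt4 were at 207 and 195 CPM. The part of immune cells in the interferon and MHC differences was not tested.

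Markers of other brain cells gave 1 call per list. Tie1, an endothelial receptor, was at 180, 33.6, 56.1 and 14.2 CPM in breast and 11.8, 2.01, 0.943 and 1.32 CPM in lung (-4.14 ± 0.997, adjusted p = 0.0278), and 7 of 16 endothelial genes were called higher in breast without lung mouse 51435. Cldn5, the endothelial tight junction gene, lay at or below 3.08 CPM in all 8 libraries. Agt was the 1 astrocyte gene and Sox10 the 1 oligodendrocyte gene called, both given above. Snap25, a synaptic protein, was at 1.85 to 2.83 CPM in lung and had no counts in breast (at least 51.0-fold higher, adjusted p = 0.0375), with 0 to 14.99 CPM in non-tumor brain. Of the 13 leave-out fits Tie1 was called in 10 and Snap25 in 4. Of 30 proliferation genes none was called by edgeR, 2 were higher in lung at an unadjusted p under 0.05 and by DESeq2, and 1 by limma-voom. Pcna, the replication clamp, came nearest (149 to 238 CPM in lung, 37.2 to 106 CPM in breast; 1.22 ± 0.34, adjusted p = 0.0541; 0.95 and called without breast mouse 51950). Among 25 hypoxia and glycolysis genes Pfkp, a phosphofructokinase (292 to 552 CPM in breast, 59.7 to 136 CPM in lung; -2.38 ± 0.36, adjusted p = 0.00213), Hk1 and Ero1l were higher in breast.

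Finally, the difference between origins in the mural sort was set against that in the endothelial sort, mostly of the same animals, in 1 fit of all 6 groups. It differed between sorts for 361 of 18548 genes (1.95%), 160 (0.863%) further toward lung in the mural sort and 201 (1.08%) further toward breast, and for 25 genes when the mouse was kept as a replicate block, 22 of them among the 361. In the endothelial sort itself 116 genes (0.625%) were higher in lung and 195 (1.05%) higher in breast. Vcam1 was at 201 CPM ± 138 (SD, 5 libraries) in endothelial cells of lung metastasis and 109 CPM ± 39.1 in those of breast, so that its difference in the mural sort exceeded the endothelial one by 4.10 ± 0.55 (adjusted p = 0.000165; 4.36 with the block, called). Ly6e, at 2455 and 3952 CPM on average in the endothelial groups, differed by -5.69 ± 0.71 (adjusted p = 5.4e-05), Sp100 by -4.14 ± 0.67 (adjusted p = 0.00215) and Igfbp4 by 3.57 ± 0.69 (adjusted p = 0.00855), all called with the block as well. The origin differences of these 4 genes were thus larger in the mural sort than in the endothelial sort.

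Gut, liver and milk genes were also found in the endothelial sort. Hnf4a was 24.6 CPM ± 13.4 in endothelial libraries of lung metastasis and 0 CPM in those of breast, and Csn3 1.71 CPM ± 0.75 and 2671 CPM ± 3565. Their origin differences between sorts differed by 1.36 ± 2.44 and -1.40 ± 2.09 (adjusted p = 0.852 and 0.808), and standard errors of this size do not show that they were alike. The genes Cfi, Cldn6, Mycn and Gata6, higher in lung in the mural sort, did differ between sorts (adjusted p of 0.00825 to 0.0223), and missed the threshold with the mouse as a block (0.0679 to 0.203). Mycn was also present in non-tumor brain, at 0 to 49.8 CPM in the PDGFRb sort. The MHC gene H2-K1 was also higher in breast in the endothelial sort (-1.79 ± 0.37, adjusted p = 0.0068), and the sorts differed by -1.51 ± 0.54 (adjusted p = 0.135). Irf7 (-2.04 ± 0.36, adjusted p = 0.00192) did the same, with a difference between sorts of -1.81 ± 0.53 (adjusted p = 0.0681). Pdgfrb and Kcnj8 differed between sorts by -6.60 ± 1.56 and -6.55 ± 1.46 (adjusted p = 0.0246 and 0.0192), and both calls were lost with the block. Their mural differences were only -2.54 and -2.62, and the rest came from the endothelial sort, where both lay toward lung. Of the 29 genes followed here that differed between sorts, 6 were called with the block: Vcam1, Ly6e, Sp100, Igfbp4, Hbegf and Aoc3.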

How the data were processed

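RNA of sorted tdTomato-positive cells was amplified with SMART-Seq HT Ultra Low Input, per the labels' protocols, a kit that marks neither strand nor molecules. The main table deposited by the authors holds expected counts per gene, of which 5.25% had decimals and were rounded. The build mm10, RSEM 1.3.3 and STAR 2.7.9a, and further limma 3.50.3 and edgeR 3.36.0, are named with no roles, per the submitters' processing notes. The authors also deposited log2 values and FPKM values for 18665 genes, used only as alternatives. Gene symbols were matched for 52093 of 53647 IDs, and rows without a symbol held 0.345% to 1.12% of the counts of the 8 libraries and were left out.

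The origin contrast was fitted with edgeR 4.0.16 (R 4.3.3) by its quasi-likelihood test on the 13 PDGFRb libraries in 3 groups, with filterByExpr, TMM scaling and Benjamini-Hochberg adjusted p over all genes tested. The fit of the sorts used 6 groups. For the check of pairing, libraries of the same animal in both sorts were compared over 13 mice, which gave correlations of deviations of -0.08 to 0.25, with 2 over 0.1. Genes named are the marker and gate genes; in each class and direction up to 10 called genes with the largest difference, where the 8 libraries averaged 3 or more on the log2 CPM scale and lung and breast libraries did not overlap; in each list up to 4 called members with the largest difference, or the member with the smallest p; and members with a defining role. The members of the comparison and all 35 gene lists were chosen with earlier results of these data known. A few genes that the rule names, and 1 of the promoter motifs searched, are not reported here. The fit was tested on simulated data with known changes.

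Counting intervals are exact 95% intervals and, like the floors, cover counting error only. Replicates are separate mice by number, and for 1 non-tumor mouse (54135) the labels disagree on which sort each library is, so its title was followed. Its library titled PDGFRb held 876 CPM of Pdgfrb and 4.11 CPM of Pecam1. The non-tumor CD31 libraries averaged 0.948 and 1404 CPM, so these values went with the title. Alternatives used DESeq2 1.42.0 and limma 3.58.1. The closest pair of replicates differed beyond sampling noise (chi-square 17.6 per degree of freedom), so none was merged.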

Additional observations from a re-analysis of the deposited data

Results flagged for a closer look

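For some of the 116 genes followed, 1 library lay far from the other 3 of its group: its gap to the nearest one made up more of the group's range than 0.829, Dixon's critical value for 4 samples. Chance gives this in about 1 in 20 groups, and 2 groups were examined per gene. In lung, mouse 51435 stood apart for 23 genes, with gaps as a share of the range of Pdgfrb 0.984, Xist 0.896, Krt19 0.835, Fabp5 0.951, Pdgfc 0.961, Mylk 0.901, Col5a1 0.962, Col6a3 0.975, Sparc 0.948, Nid1 0.948, Col4a2 0.907, Lamc1 0.945, Col15a1 0.982, Aoc3 0.919, Emid1 0.992, Kcnj8 0.971, Rgs5 0.923, Acta2 0.939, Col1a1 0.927, Tie1 0.901, Usp18 0.863, Iigp1 0.965 and Sp100 0.915. For each of these but Krt19 and Pdgfc it was the high library, and for those it was the low one. Mouse 55169-70 was the high lung library for Ptprc 0.916, Kit 0.927 and Pdgfd 1.0.

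In breast, mouse 51950, the shallowest library, stood apart for Pzp 0.944, Gc 0.951, Onecut2 0.982, Fga 1.0, Igfbp4 0.866, Sox5 0.929 and Sp110 0.923, always as the high one. Mouse 52599 was the high library for Csf2 1.0, and mouse 52865 for Ttr 0.915, Foxa2 0.957 and Igf2bp1 0.908. Mouse 53072 was the high library for Hnf4a 1.0, Cldn6 1.0, Lcn2 0.893, Trps1 0.877 and Ccl17 1.0. A share of 1.0 means that the other 3 libraries had equal values, here no counts.

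For 29 of the 116 genes the origin difference in the mural sort differed from that in the endothelial sort, by the adjusted p of the interaction in edgeR's quasi-likelihood test (1.95% of all genes). On the log2 scale it lay further toward lung in the mural sort for Vcam1 4.10, Cfi 8.47, Hhex 5.96, Gata6 8.15, Cldn6 9.56, Mycn 6.93, Nras 1.58, Plaur 2.08, Hbegf 2.05, Sox10 6.36, Clu 2.65 and Igfbp4 3.57. Sox10 is among these although it was higher in breast in the mural sort, because it was more so in the endothelial sort. The difference lay further toward breast for Pdgfrb -6.60, Pecam1 -4.04, Ly6e -5.69, Col5a1 -6.68, Col6a2 -7.31, Nid1 -2.05, Nid2 -2.87, Aoc3 -5.45, Emid1 -4.80, Kcnj8 -6.55, Pdgfd -5.21, Tie1 -4.27, Ifi44 -3.52, Usp18 -2.44, Sp100 -4.14, Sp110 -3.69 and Pfkp -1.98. In the mural sort alone Pdgfrb, Col5a1, Col6a2 and Kcnj8 differed by only -2.54, -3.24, -2.34 and -2.62. The rest of their values came from the endothelial sort, where these genes lay toward lung. Both sorts come mostly from the same mice, and with the mouse as a replicate block 25 genes in all were called, 22 of them among the 361; of the 29 genes given here 6, Vcam1, Hbegf, Ly6e, Igfbp4, Aoc3 and Sp100, were called with the block and the others were not.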

How the results depend on the processing

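Apart from scaling to the pericyte list, the counts of genes called moved more than their directions. Against 524 genes higher in lung and 407 higher in breast, DESeq2 gave 1096 and 1218, limma-voom 1001 and 596, limma on the deposited log2 values 687 and 625, and limma on log2(FPKM + 1) 1066 and 659, or 1081 and 733 at a mean FPKM of at least 1, and on log2(FPKM + 0.1) 854 and 622. RLE scaling gave 529 and 455, and upper-quartile scaling 512 and 514. A fit of only the 8 lung and breast libraries gave 341 and 96, leaving out both lung libraries with 2 mouse numbers 109 and 11, and the date as a covariate 12 and 90, where 5 residual degrees of freedom remained and 3 libraries stood alone on their date. In each of these alternatives all of the 931 genes that were tested again kept their direction. Scaling to the pericyte list gave 13297 and 97, and there only 685 of the 931 kept their direction and 583 were still called. Leaving out 1 PDGFRb library at a time gave 251 to 1413 genes higher in lung and 97 to 1275 higher in breast. Lung genes made up 56.3% of the calls, 99.3% with pericyte scaling, 78% in the 8 libraries alone, 90.8% without both lung libraries with 2 mouse numbers, 36.6% without lung mouse 51435 and 11.8% with the date.

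Scaled to the pericyte list, which moved the median of all genes from 0.07 to 4.36 on the log2 scale, differences changed sign to Pdgfrb 0.44, Pecam1 0.35, Epcam 1.13, Xist 0.20, Kit 0.71, Anpep 0.58, Mylk 1.37, Cald1 2.39, Col5a1 0.42, Col6a2 1.74, Sparc 1.59, Nid1 1.62, Nid2 0.51, Col4a2 0.83, Lamc1 2.28, Col1a1 0.31, H2-K1 0.58, H2-D1 1.65, B2m 1.89, Irf7 0.10, Isg15 0.24, Tgtp2 0.53, C1s1 2.36, Cd200 0.68, Cd276 4.46, Cd74 3.35 and Pfkp 1.77. Cd276, at -0.14 with TMM scaling, was at 0.66 with limma-voom, 0.23 on deposited log2 values, 0.26, 0.29 and 0.26 on the FPKM settings, 0.59 with the date, and -0.47 to 0.42 when 1 library was left out. Ptprc lay between -1.44, without lung mouse 55169-70, and 1.81 when 1 library was left out, and turned to -1.43 without both 2-number libraries and -5.42 with the date. The cause of each change was not tested.

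In the classes by non-tumor level, the genes absent from non-tumor vessels and higher in breast numbered 37, 20 with absence set under 0.5 CPM and 62 under 3 CPM. Leaving out breast mouse 51950 or lung mouse 51435, alternatives chosen after seeing the data, gave 247 to 268 absent genes higher in lung and 45 to 145 in breast, 34 to 85 and 161 to 352 genes enriched in the PDGFRb sort, and 303 to 1060 and 613 to 969 other genes. Classes set without non-tumor mouse 54135 stayed within 1.5 times of the counts in the report.

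No paired analysis was possible because the lung and breast libraries come from different mice and share no replicate number. For the mural against the endothelial sort, keeping the mouse as a replicate block gave 25 genes, against 361 without it. Of the 29 genes followed that were called without the block, 6 were called with it, and H2-Q7 was called only with it (-3.56, adjusted p = 0.0336). DESeq2 gave 1240 genes, limma-voom 903 and no filter on low counts 238, and leaving out 1 library at a time gave 148 to 1043. The shallow breast library of mouse 51950 limits what can be said of genes at low counts there, and 4 libraries per group limit the calls.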
